A study of Caenorhabditis elegans with 2 samples.

Results

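The piRNA cluster domains of Caenorhabditis elegans chromosome IV are the stretches in which most of the worm's piRNA genes lie, taken here as 4.5 to 7 Mb (the first domain, 2.5 Mb long) and 13.5 to 17.2 Mb (the second domain, 3.7 Mb long) on assembly ce11. Peak regions of the RBM-26 profile were assigned to them by position alone, whether or not they passed the authors' threshold. A region entered when its summit, the base of strongest enrichment, fell inside these borders, and 641 regions of the ranked peak list did so, 322 in the first domain and 319 in the second. They are 641 of 17826 ranked regions on the nuclear chromosomes and were set against the 2251 ranked regions on the other 11.3 Mb of chromosome IV. Of the 15363 annotated piRNA genes, 14714 lie on chromosome IV, and 14204 of these lie in the domains.

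Piwi-interacting RNAs of C. elegans, also called 21U-RNAs, are short germline RNAs that begin with uridine and are carried by the Argonaute protein PRG-1, which uses them to recognise foreign transcripts. Each is transcribed by RNA polymerase II from its own small gene, most of which have a conserved motif upstream, and such genes crowd the domains, many inside introns of other genes. A complex of PRDE-1, SNPC-4, TOFU-4 and TOFU-5 is known to gather on the clusters for this transcription. RBM-26 is an RNA-binding protein related to human RBM26 and RBM27.

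The protein was profiled by chromatin immunoprecipitation and sequencing (ChIP-seq) with an anti-GFP antibody in 2 biological replicates of whole young adults aged 66 hours, grown from larvae starved at the L1 stage after bleaching. Both replicates came from strain OP801, which carries the integrated fosmid transgene wgIs801, expressing B0336.3 (rbm-26) with a TY1 EGFP 3xFLAG tag, with unc-119(+) as the rescue marker in the unc-119 (tm4063) mutant background. A whole worm mixes germline and somatic cells, so the cell type behind a region cannot be told apart. There was no second group, no condition was compared, and the control experiment that the labels name as possible was not analysed here.

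Sequences are given as examples at sites picked by signal or by distance to a piRNA gene, so they do not stand for the other sites. The 4 windows that follow are the strongest pair of regions of each domain, each 151 bases centred on the summit, which is in capitals, from the RefSeq WBcel235 sequence (the ce11 assembly), plus strand. The first lies upstream of Y17G9B.5 (chrIV:4750010-4750160), the second upstream of usp-4 (chrIV:6756532-6756682), the third beside the snoRNA gene Y67A10A.14 and upstream of fbxa-83 (chrIV:14327094-14327244), and the fourth upstream of ntl-11 (chrIV:15471518-15471668).
Y17G9B.5: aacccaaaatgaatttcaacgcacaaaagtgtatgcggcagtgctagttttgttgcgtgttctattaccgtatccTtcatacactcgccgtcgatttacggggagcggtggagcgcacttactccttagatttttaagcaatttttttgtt
usp-4: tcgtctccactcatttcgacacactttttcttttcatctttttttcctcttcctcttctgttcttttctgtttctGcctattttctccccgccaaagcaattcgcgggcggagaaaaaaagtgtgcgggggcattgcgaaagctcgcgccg
fbxa-83: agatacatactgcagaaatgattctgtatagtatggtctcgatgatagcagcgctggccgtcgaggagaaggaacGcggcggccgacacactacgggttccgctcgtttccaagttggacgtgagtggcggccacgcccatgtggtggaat
ntl-11: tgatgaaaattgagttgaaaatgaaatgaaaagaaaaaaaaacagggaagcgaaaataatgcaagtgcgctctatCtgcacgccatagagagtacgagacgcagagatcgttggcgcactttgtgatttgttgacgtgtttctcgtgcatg

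The windows held 42.4%, 47.7%, 55.6% and 41.1% GC, against 33.0% over all bases of the domains. The 9 piRNA genes that lie nearest to a conservative summit and within 250 bp of it are shown next, in order of the signal of that region, each as its 21 bases in capitals preceded by 60 bases upstream, with the upstream motif CTGTTTCA in capitals where it occurs. In the order printed, and with their strand, they lie at chrIV:14327393-14327473 (minus), chrIV:5967029-5967109 (plus), chrIV:14658508-14658588 (minus), chrIV:6839416-6839496 (plus), chrIV:5386138-5386218 (plus), chrIV:5607749-5607829 (minus), chrIV:5364359-5364439 (plus), chrIV:5265097-5265177 (minus) and chrIV:16664074-16664154 (minus).
21ur-7591: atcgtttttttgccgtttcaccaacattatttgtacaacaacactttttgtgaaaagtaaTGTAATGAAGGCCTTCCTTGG
21ur-5229: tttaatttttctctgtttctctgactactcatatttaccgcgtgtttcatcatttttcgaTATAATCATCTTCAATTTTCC
21ur-5343: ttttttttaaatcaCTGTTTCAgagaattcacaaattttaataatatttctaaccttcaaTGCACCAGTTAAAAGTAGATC
21ur-8870: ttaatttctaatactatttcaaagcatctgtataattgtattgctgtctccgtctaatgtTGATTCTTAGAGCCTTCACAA
21ur-8039: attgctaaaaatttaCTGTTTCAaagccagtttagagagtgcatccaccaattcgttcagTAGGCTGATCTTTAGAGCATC
21ur-3187: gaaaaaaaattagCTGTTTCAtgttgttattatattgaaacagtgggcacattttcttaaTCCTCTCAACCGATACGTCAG
21ur-11261: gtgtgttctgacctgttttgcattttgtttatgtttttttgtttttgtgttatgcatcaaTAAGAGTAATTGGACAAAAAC
21ur-7377: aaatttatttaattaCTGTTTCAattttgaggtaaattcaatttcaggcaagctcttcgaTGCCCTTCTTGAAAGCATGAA
21ur-8609: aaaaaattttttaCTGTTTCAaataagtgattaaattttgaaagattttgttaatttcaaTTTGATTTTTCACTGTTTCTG

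These 9 sequences had between 18.5% and 38.3% GC. CTGTTTCA, searched as an exact match on the strand of the piRNA, stood within the 60 bases upstream of 34.8% of the piRNA genes of the domains and began 46 bases before the piRNA most often. Of the same genes, 96.2% begin with T in the reference. Of the chromosome IV piRNA genes that had it, 98.2% had it starting 43 to 50 bases before. Searched on both strands, it occurred in 4.52% of the 301 bp windows at the 641 summits and in 3.42% of those at the 117 conservative summits, against 21% of all such windows of the domains.

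Ranked RBM-26 regions were sparser in both domains than elsewhere on the chromosome. The ranked list, which holds every peak the authors ranked for agreement between the replicates, gave 128.8 regions per Mb in the first domain and 86.2 in the second, against 199 on the rest of chromosome IV. The ratio of densities was 0.646 (95% interval 0.575 to 0.726) for the first domain, 0.433 (0.385 to 0.486) for the second and 0.519 (0.475 to 0.566) for both together. These and all later intervals cover counting error only, since neighbouring regions are not independent. In the ranked list of replicate 1 alone the ratio for both domains was 0.517, and in that of replicate 2 it was 0.592, so both replicates put the domains below the rest. Nearly all of these peaks had the same width: 94.6% of the peaks in the ranked list were exactly 620 bp wide, and with those left out 85 regions remained in the domains and the ratio was 0.851 (0.658 to 1.10). Soft-masked bases, which the reference marks as repeats, make up 35.4% of the first domain, 45.4% of the second and 36.0% of the rest. The part of repeats and of how well reads map over the piRNA clusters in the densities, the empty stretches and the piRNA distances was not tested.

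Protein-coding genes were sparser in the second domain too, while the first did not differ from the rest beyond counting error. The conservative list, which holds the peaks that passed the authors' threshold on the irreproducible discovery rate, gave 65 regions in the first domain and 52 in the second, or 26 and 14.1 per Mb, against 28.5 on the rest. The first domain did not differ from the rest beyond counting error (ratio 0.912, 0.699 to 1.19), while the second lay below it (ratio 0.493, 0.368 to 0.661). By the rule the first domain includes 4.5 to 4.8 Mb, where piRNA genes are few. The 100 kb bins of that stretch hold 0, 1 and 8 piRNA genes, 17, 19 and 28 ranked regions, and 3, 4 and 7 conservative regions. The strongest region of the first domain lies there. The part of this stretch in the ratio was not tested. Protein-coding starts numbered 192.8 per Mb in the first domain, 124 in the second and 207 on the rest, with ratios of 0.931 (0.844 to 1.03) and 0.599 (0.542 to 0.662). Per 100 protein-coding genes the conservative list held 13.5 regions in the first domain, 11.3 in the second and 13.8 on the rest. The ranked list held 66.8, 69.5 and 96.2, so the ranked regions were fewer in the domains also for the number of genes.

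**Figure D1:**
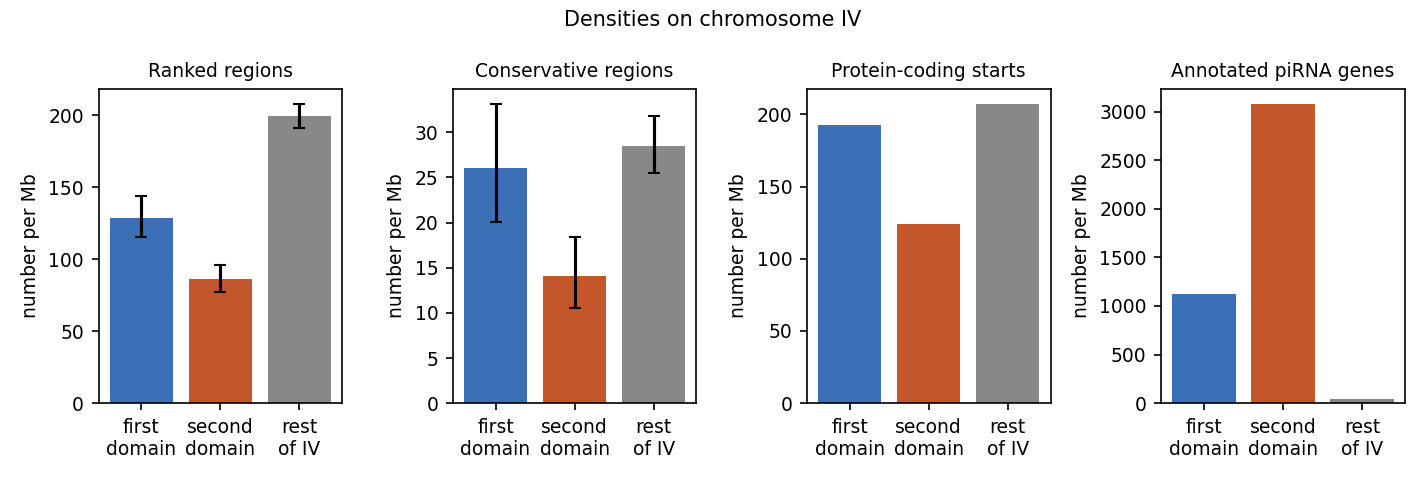
Number per Mb (vertical axes) of ranked regions, conservative regions, protein-coding starts and annotated piRNA genes in the first domain, the second domain and the rest of chromosome IV, with 95% Poisson intervals on the region counts. Ranked regions fall from 199 per Mb on the rest to 128.8 and 86.2 in the domains, while piRNA genes rise from 45.2 to 1126 and 3078 per Mb.

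The fall in density was larger at the left borders than at the right ones. In the 500 kb before the first domain there were 256 ranked and 50 conservative regions per Mb, and in its first 500 kb there were 150 and 30. In the 500 kb before the second domain there were 274 and 44, and in its first 500 kb 116 and 12. At the right border of the first domain the ranked density was 158 per Mb inside and 168 outside, with 28 and 40 conservative regions per Mb. At the right end of the second domain 136 ranked regions per Mb inside stood against 123 in the last 0.294 Mb of the chromosome, and 10 conservative regions per Mb against 23.8. The conservative counts at the right borders were small, 14 inside and 20 outside at the first domain and 5 and 7 at the second. Annotated piRNA genes numbered 22 per Mb before each left border, 96 after the first domain and 596 after the second. The right borders thus do not mark as sharp a change in piRNA genes. The summits nearest to the borders had signals of all sizes. The last before the first domain (position 4480428) had a signal of 103 and the first inside it (4508780) had 24.4, and those on either side of its right border (6978781 and 7013375) had 89.4 and 43.6. At the second domain the values were 57.9 before (13495222), 35.3 and 56.5 inside (13500439 and 17187142) and 453 past the right border (17249913).

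Within the domains the regions came in runs separated by long empty stretches. The median distance between neighbouring ranked summits was 1.74 kb in the first domain and 1.65 kb in the second, but the longest stretches without any were 242 kb (4821210 to 5063596) and 214 kb (16174469 to 16388440). The first of these holds 342 piRNA genes and 56 protein-coding starts, and the second 531 and 33. Of the 20 longest stretches without a ranked summit on the nuclear chromosomes, 8 lay in the domains, which make up 6.18% of the nuclear bases. The longest stretch with no conservative summit was 422 kb in the second domain (15049623 to 15471593). It holds 1473 piRNA genes, 52 protein-coding starts and 8 ranked regions, and its right end is the strong summit at ntl-11.

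Bins with more piRNA genes tended to hold fewer ranked regions, with exceptions. Over 100 kb bins, the number of ranked regions and the number of piRNA genes had a Spearman rho of -0.46 in the first domain (25 bins) and -0.52 in the second (37 bins). Against protein-coding starts the rho was -0.15 and 0.16. For conservative regions the values were -0.41 and -0.26 against piRNA genes and 0.11 and 0.05 against protein-coding starts. Among the exceptions, chosen after their values were seen, a bin of the first domain with 211 piRNA genes held 17 ranked and 6 conservative regions, and bins with 110 and 93 held none. Bins share their base composition with their gene content, and these values are descriptions with no test. No conservative region fell in 3 of the 25 bins of the first domain and in 15 of the 37 of the second.

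**Figure D2:**
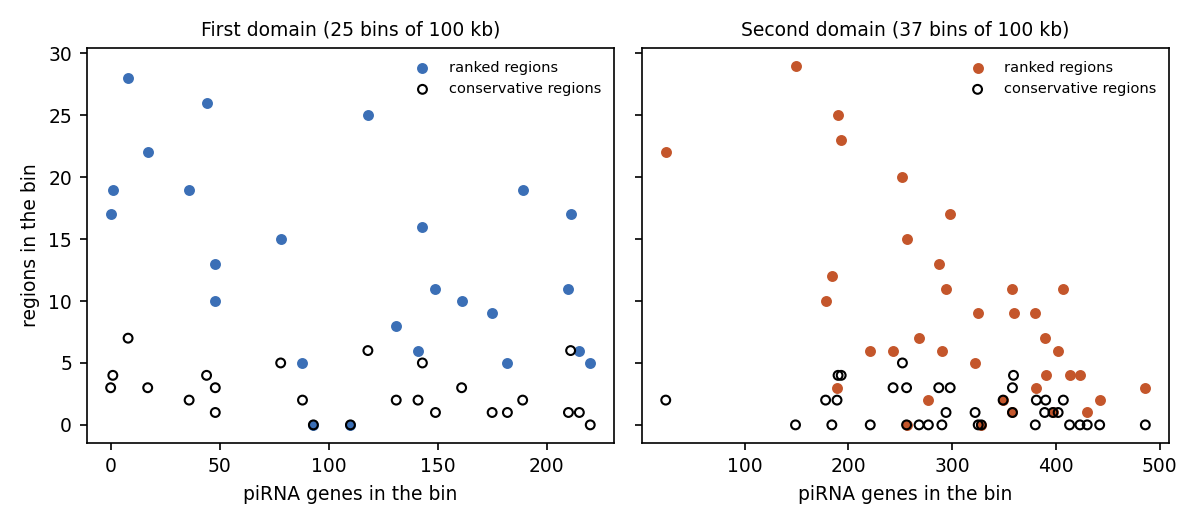
Number of ranked regions (filled points) and conservative regions (open circles) in each 100 kb bin against the number of annotated piRNA genes in that bin, for the 25 bins of the first domain and the 37 bins of the second. In the second domain the bin with the most piRNA genes (486) holds 3 ranked regions, while in the first domain a bin with 211 holds 17.

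Summits lay away from the piRNA genes themselves. In the first domain 9.32% of ranked summits (95% Wilson interval 6.60 to 13.0) lay within 250 bp of a piRNA gene, against 34.5% of all bases of that domain. In the second domain the share was 13.2% (9.89 to 17.3) against 62.0% of bases. Over both domains 72 of 641 ranked summits did so, 11.2% (9.02 to 13.9), and 9 of 117 conservative summits, 7.69% (4.10 to 14.0), against 50.9% of bases. The conservative counts were 6 of 65 in the first domain and 3 of 52 in the second, and none of the 52 of the second domain lay within 100 bp of a piRNA gene (interval up to 6.88%), as 40.7% of its bases do. On the rest of chromosome IV, where piRNA genes are scattered, 15 of 2251 ranked summits (0.666%) were within 250 bp of a piRNA gene, against 1.90% of bases.

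The replicates differed in size here but not in direction. In the ranked list of replicate 1, 63 of 699 domain summits (9.01%, 7.11 to 11.4) lay within 250 bp of a piRNA gene, and in that of replicate 2, 122 of 660 did (18.5%, 15.7 to 21.6). In the second domain the shares were 11.6% in replicate 1 and 24.8% in replicate 2. In the thresholded lists of each replicate alone they were 5 of 84 (5.95%) and 9 of 85 (10.6%). All of these lie below 50.9%, the share of bases.

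Measured as a distance, the median ranked summit of the domains lay 4357 bp from the nearest piRNA gene and the median conservative summit 3688 bp, while the median base lay 239 bp away. Within 100 bp of a piRNA gene were 4.84% of ranked summits and 31.7% of bases. At 5000 bp or more were 46.5% of ranked summits and 13.9% of bases. Of conservative summits 28.8% (18.3 to 42.3) lay at 5000 bp or more in the second domain, where 8.63% of bases do, and 47.7% (36.0 to 59.6) in the first, where 21.6% of bases do.

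**Figure D3:**
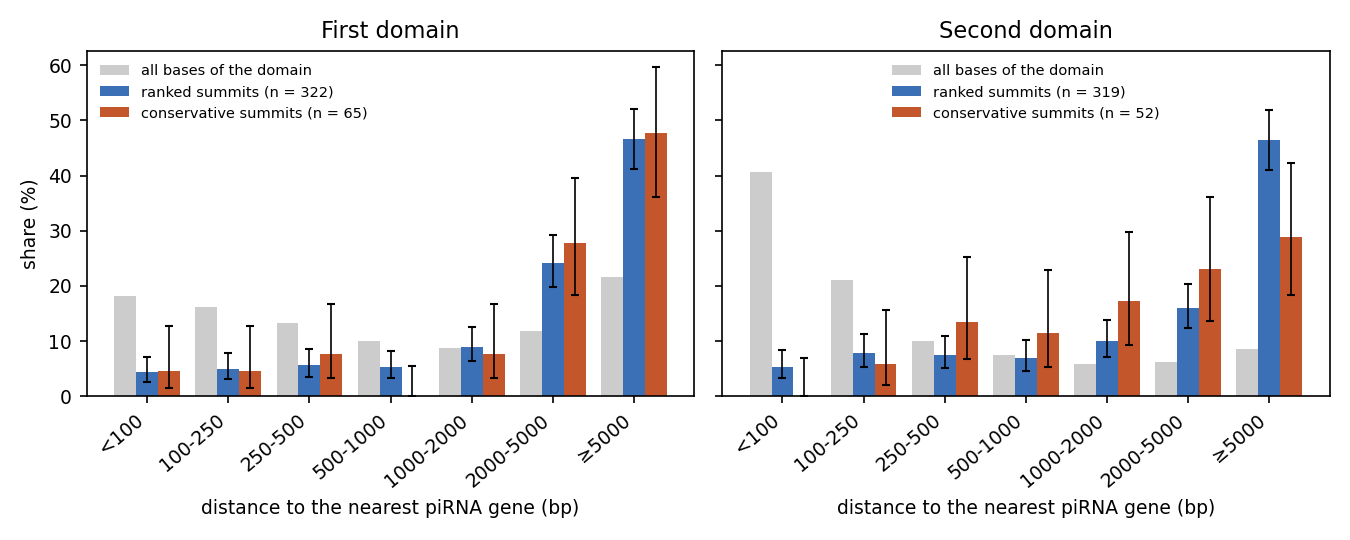
Share (%) of all bases, of ranked summits and of conservative summits in each class of distance to the nearest piRNA gene (bp), in the first domain and the second, with 95% Wilson intervals on the summits. In the second domain 40.7% of bases lie under 100 bp, and in the first 18.2% do. Ranked summits are most frequent at 5000 bp or more, at 46.4% in the second domain and 46.6% in the first.

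Base composition moved with this result. The 101 bp at ranked summits of the domains had a mean GC content of 41.9% ± 8.78 (SD, n = 641 summits), and conservative summits 45.2% ± 7.48 (n = 117), against 33.0% of all domain bases. On the rest of chromosome IV the values were 41.8%, 45.9% and 35.5%. When bases and summits were divided by the GC content of their window, ranked summits of both domains lay near piRNA genes less often than bases did in each class. Under 30% GC the shares were 20.6% of summits and 68.2% of bases, at 30 to 40% they were 11.3% and 45.4%, at 40 to 50% they were 11.4% and 25.9%, and at 50% or more 5.41% and 16.2%. In percentage points the gap was narrower at 40% GC and above, where the share of bases near a piRNA gene was itself lower. In the first domain at 50% or more, 0 of 42 summits lay near a piRNA gene. The base share there, 7.07%, lay inside the interval of the summits (0 to 8.38%). For conservative summits at 40 to 50% GC the shares were 4 of 30 in the first domain (13.3%, 5.31 to 29.7), against 17.3% of bases, which is no difference beyond counting error, and 1 of 25 in the second (4%, 0.710 to 19.5), against 33.2%.

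**Figure D4:**
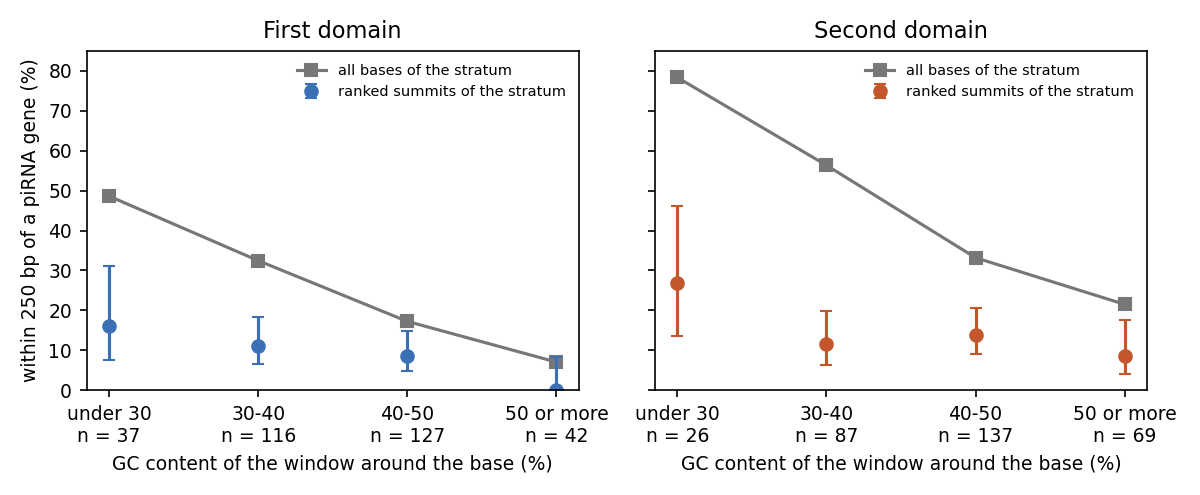
Share (%) of bases (squares) and of ranked summits (points, with 95% Wilson intervals) within 250 bp of a piRNA gene, by the GC content of the 101 bp window around them, in the first and the second domain. Summits lie below bases in every class, and in the first domain at 50% GC or more the interval of the summits reaches the value of the bases.

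The shares were also taken by position with respect to genes. Inside protein-coding genes 10.2% of ranked summits of the domains (45 of 442) were near a piRNA gene, against 42.4% of such bases, and outside them 13.6% (27 of 199) against 59.2%. Within 500 bp of a protein-coding start the shares were 7.55% (12 of 159) and 36.7%. Soft-masked bases carried 25.1% of ranked and 15.4% of conservative domain summits and made up 41.3% of bases.

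Seen from the piRNA genes, 285 of the 14204 in the domains (2.01%) lay in a ranked region, although ranked regions cover 9.64% of the domain bases. Of the 641 ranked regions, 534 (83.3%) held no piRNA gene, and the fullest held 14. In conservative regions lay 13 piRNA genes (0.0915%), against 0.95% of bases. Of the 285 genes, 74.0% were inside protein-coding genes, against 36.4% of the other piRNA genes. The motif CTGTTTCA stood upstream of 45.3% of the 285 (39.6 to 51.1) and of 34.6% of the others. The difference was seen in the second domain, where the shares were 49.2% (41.9 to 56.4) and 33.4%, while in the first they were 38.7% (29.96 to 48.2) and 39.7%. The 285 genes sat in 107 regions, so their number is not a number of independent sites.

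The 9 conservative regions whose summit lay within 250 bp of a piRNA gene had signals from 101 to 373. The signal is the authors' own value for each peak, used here only to rank and describe. The strongest, at the snoRNA gene Y67A10A.14, had a signal of 373 in the series list, 191 in replicate 1 and 171 in replicate 2, with 21ur-7591 at 224 bp. The region at the tRNA gene B0350.t1 (254, 135 and 116) had 21ur-5229 at 115 bp. A region in the second domain whose piRNA neighbour is 21ur-5343, at 214 bp, had a signal of 200 (109 and 92.8). Its summit lay 14 bp upstream of the start of anoh-2. In both strongest cases a small non-coding gene other than the piRNA gene lay within 250 bp as well.

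The other 6 had signals of 183 or less. Their piRNA neighbours were 21ur-8870 at 164 bp (signal 183), 21ur-8039 at 36 bp (128), 21ur-3187 at 178 bp (124), 21ur-11261 at 95 bp (109), 21ur-7377 at 95 bp (104) and 21ur-8609 at 249 bp (101). Other genes lay closer to some of these summits. Those by 21ur-8870 and 21ur-7377 lay in an exon of another non-coding gene or pseudogene. That by 21ur-11261 lay 18 bp upstream of the start of hda-6. For 21ur-8039, 21ur-3187 and 21ur-8609 the nearest protein-coding start was farther than the piRNA gene. The motif stood upstream of 5 of the 9 nearest piRNA genes, namely 21ur-5343, 21ur-8039, 21ur-3187, 21ur-7377 and 21ur-8609.

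Ranked regions of the domains reached the conservative list at a slightly higher share than those of the rest, with intervals that overlap. They did so in 117 of 641 cases, 18.3% (95% Wilson interval 15.5 to 21.4), against 321 of 2251 on the rest of chromosome IV, 14.3% (12.9 to 15.8), and 13.5% of all ranked nuclear regions. The first domain gave 20.2% (16.2 to 24.9) and the second 16.3% (12.7 to 20.8), whose interval covers the value of the rest. In the lists of replicate 1 the shares were 12% in the domains and 9.94% on the rest, and in those of replicate 2 they were 12.7% and 10.5%, with intervals that overlap in each replicate. With the peaks of 620 bp left out, 83.5% and 80.8% reached.

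The median signal of ranked regions was 52.4 (95% interval 46.6 to 60.6) in the first domain, 41.8 (37.5 to 48.4) in the second and 48.0 (42.8 to 51.4) in both, against 40.7 (39.1 to 42.4) on the rest, so only the first domain lay above the rest by itself. The difference was smaller in unmerged peaks, with medians of 28.3 (26.7 to 29.8) in the domains and 26.2 (25.4 to 27.1) on the rest, intervals that overlap. Without the peaks of 620 bp the medians were close, at 178 and 177. Among conservative regions the medians were 145, 156 and 151, against 144. No ranked region under a signal of 50 reached the conservative list in the domains or on the rest. At 50 to 100 the share reaching was 6.22% in the domains and 5.32% on the rest, at 100 to 150 it was 83.6% and 89.1%, and at 150 or more 100% of 59 and 98.7% of 153. Regions of 150 or more made up 9.20% of ranked regions in the domains and 6.80% on the rest.

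Signals of matched domain regions rose together in the 2 replicates, as on the rest of chromosome IV. Of the 641 ranked regions, 512 had a counterpart in the ranked lists of both replicates, with a Spearman rho of 0.671 between their signals. Over the 117 that reached the conservative list rho was 0.710, with medians of 78.1 in replicate 1 and 77.8 in replicate 2. On the rest the values of rho were 0.642 for ranked regions and 0.568 for those that reached the conservative list. A region of a replicate can overlap more than 1 ranked region, so neighbours can share a replicate value. These correlations run across regions, which share a library, and the conservative regions had already passed a threshold on agreement. Of the 117, 47.9% were in the thresholded lists of both replicates and 26.5% in neither, against 46.6% and 24.2% on the rest.

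**Figure D5:**
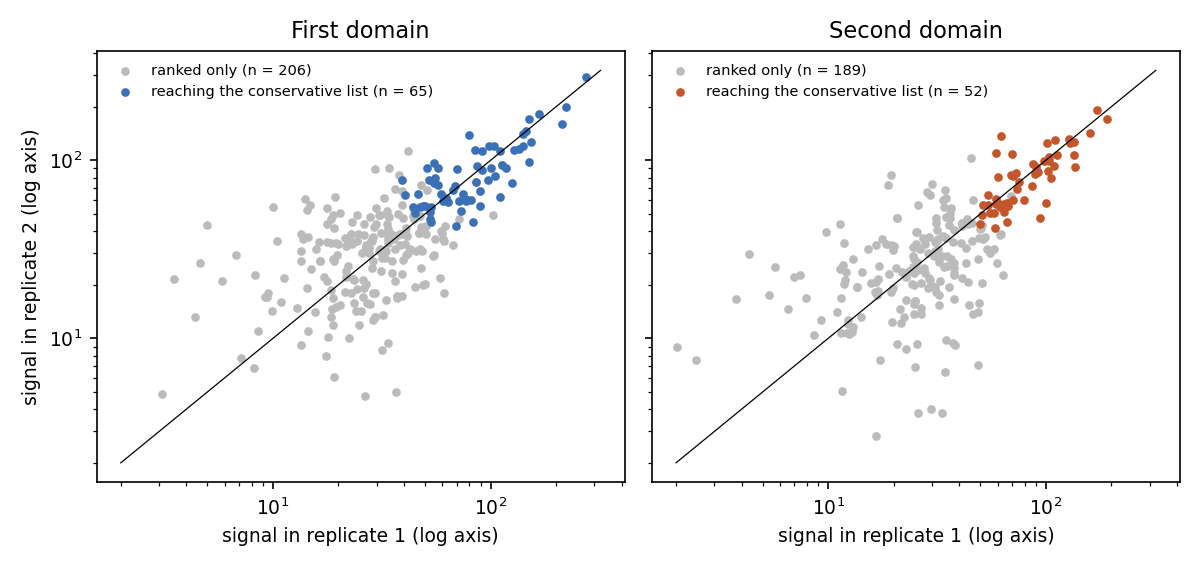
Signal in replicate 2 against signal in replicate 1 (both on log axes, the authors' peak values) for the 512 ranked domain regions found in both replicates, with those that reached the conservative list in colour and the line of equal signal. The 65 and 52 conservative regions lie at the upper right, near the line.

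Conservative summits of the domains lay near gene starts and ends more often than bases did. Within 500 bp of a protein-coding start lay 45.3% of them (53 of 117) and 24.8% of ranked summits, against 14.4% of domain bases. On the rest of chromosome IV the values were 43.2% and 27.0%, against 19.4%. Within 500 bp of a protein-coding end lay 41.0% of conservative summits, against 13.6% of bases, and on the rest 44.7% against 17.6%. The stretch of 500 bp upstream of a start held 35.4% of conservative summits in the first domain and 32.7% in the second, which is 3.90 and 5.51 times the share of bases, against 31.1% and 3.2 times on the rest. Space between genes was counted without the 500 bp upstream of starts and with piRNA genes as part of it. So defined, it makes up 49.2% of the second domain and held 17.3% of its conservative summits (9.38 to 29.7). In the first domain the values were 31.9% and 20%. Inside protein-coding genes lay 44.2% of conservative summits of the second domain, against 43.4% of bases. In the first domain 43.1% did, against 58.2% of bases.

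Small non-coding genes other than piRNA genes had summits more often than piRNA genes did. Within 250 bp of a tRNA, snoRNA, snRNA, rRNA or miRNA gene lay 15 of 117 conservative summits (12.8%, 7.93 to 20.1), against 0.886% of bases and, on the rest of chromosome IV, 8.70% of summits and 0.651% of bases. The second domain held 10 of the 15. A conservative summit stood within 250 bp of 3 of 9 tRNA genes in the first domain and 8 of 32 in the second, against 9 of 30 on the rest. It stood within that distance of 3 of 18 snoRNA genes, 1 of 16 snRNA genes, 1 of 19 miRNA genes and 11 of 14204 piRNA genes of the domains. On the rest of chromosome IV the counts were 10 of 41 snoRNA, 7 of 25 snRNA and 3 of 31 miRNA genes, which are higher shares. Ranked summits stood at 14 of 41 tRNA genes in the domains and at 18 of 30 on the rest. For the class that Ensembl calls ncRNA the count was 26 of 321.

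In the conservative list the share of protein-coding genes bound in the domains was close to that of the rest of the chromosome. A gene was called bound when its start was the nearest to a conservative summit and within 1000 bp of it, which held for 39 of 482 genes in the first domain, 30 of 459 in the second and 69 of 941 in both (7.33%, 5.83 to 9.18). The rest of chromosome IV gave 182 of 2340 (7.78%), and all nuclear chromosomes 6.65%. With ranked summits the share was lower in the domains. A ranked summit lay within 1000 bp of the start of 225 of 941 genes (23.9%), against 903 of 2340 (38.6%) on the rest. The summit was upstream of the start for 42 of the 69 and downstream for 27, and the median signal at these genes was 178.

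The 24 strongest regions, 12 from each domain, had signals from 207 to 553. In replicate 1 they ran from 102 to 273 and in replicate 2 from 91.2 to 292, and 23 were in the thresholded lists of both. A protein-coding start lay within 1000 bp of 21 of them and a non-coding gene other than a piRNA gene within 250 bp of 10. The median distance to the nearest piRNA gene was 3095 bp, and 2 of the 24 had one within 250 bp.

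In the first domain the strongest region (4749805 to 4750311) had a signal of 553, with 273 in replicate 1 and 292 in replicate 2, 155 bp upstream of Y17G9B.5. The next (6756422 to 6756824) had 425, with 222 and 200.5, and lay 704 bp upstream of usp-4, which encodes a ubiquitin-specific protease. Its summit was closer, at 165 bp, to the ncRNA gene H34C03.18. The third (6336654 to 6337130) had 374, with 213 and 159, and lay 753 bp upstream of ipla-6, a phospholipase A2 gene. The replicates gave these regions similar values, with the larger in replicate 2 for the first of them only.

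The next regions of the first domain lay at genes of varied roles. The summit 264 bp upstream of inx-7, a gap-junction innexin gene, had a signal of 338. The summit 288 bp upstream of zen-4, whose product is a kinesin needed for cytokinesis, had 316 and lay 51 bp from the snoRNA gene M03D4.78. Summits 208 bp upstream of puf-11, a gene of the PUF family of RNA-binding proteins, and 330 bp upstream of sqd-1, a relative of the Drosophila hnRNP gene squid, had 283 and 281. The puf-11 summit lay 177 bp from the pseudogene Y73B6BL.45. The list of 12 in this domain closed with K08F11.1 (267, 734 bp downstream of the start), W03F8.4 (255, 219 bp upstream), the region at the tRNA gene B0350.t1, F29B9.11 (242, 323 bp upstream) and cyc-2.1, a cytochrome c gene (236, 406 bp downstream). The K08F11.1 summit was closer, at 142 bp, to the ncRNA gene K08F11.7.

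In the second domain the region at the snoRNA gene Y67A10A.14 (14326997 to 14327360) stood first, its summit 48 bp from that gene and 786 bp upstream of fbxa-83, an F-box gene. The region 98 bp upstream of ntl-11 (15471437 to 15471798), a gene for a subunit of the CCR4-NOT deadenylase complex, had a signal of 365, with 171 in replicate 1 and 193 in replicate 2. The summit 325 bp upstream of lin-66, a gene of the heterochronic pathway, had 299, with 160 and 143. All 3 were in the thresholded lists of both replicates.

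The remaining regions of the second domain had signals from 207 to 265. The summit 101 bp downstream of the start of hrpu-1, the worm gene for hnRNP U, had a signal of 265, and another in an intron of the same gene had 207 and was not in the thresholded list of replicate 1. The stronger of these summits also lay in an exon of the ncRNA gene Y41E3.459. The summit 68 bp downstream of the start of thoc-7, for a subunit of the THO complex of mRNA export, had 257. The summit 165 bp upstream of gtsf-1, whose product is needed for the 26G class of small RNAs in C. elegans, had 231, with 135 and 107. The others were Y57G11C.5 (260, beside the snRNA gene Y57G11C.35), dld-1, a dihydrolipoamide dehydrogenase gene (240), the region at the tRNA gene Y7A9D.t2 (230.0), Y73F8A.27 (223) and ccar-1 (220.0). The dld-1 summit also lay in the ncRNA gene LLC1.120. The class of the genes named here was not tested.

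The counts of bound genes in the families listed were small and are read against the 7.33% bound over all protein-coding genes of the domains. Of 68 chemosensory receptor genes 2 were bound, srw-95 (signal 220, summit 43 bp upstream) and srv-16 (138, 616 bp downstream), and of 81 on the rest of chromosome IV 0 were. Of 7 F-box genes 1 was bound, which was fbxa-83, and of 5 ribosomal protein genes 2 were, rps-18 (144) and rpl-29 (113), against 0 of 20 and 7 of 12 on the rest. None was bound among 9 C-type lectin, 5 nuclear hormone receptor, 6 collagen and 9 major sperm protein genes, numbers too small to tell from that share, and the domains hold no histone gene of the list.

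The genes that make and use piRNAs lie mostly outside the domains. Of 25 names listed, 23 were found in the annotation, 22 of them protein-coding, and 3 of these 22 were bound, 13.6% against 6.65% of all protein-coding genes. They were tofu-1, for a subunit of the endonuclease that trims the 5′ end of piRNA precursors (signal 90.9, with 47.4 in replicate 1 and 48.5 in replicate 2, summit 26 bp upstream), tofu-6, for a subunit of the PETISCO complex that binds the precursors (102, with 48.7 and 54.1, summit 53 bp upstream), and hrde-1, for the nuclear Argonaute downstream of PRG-1 (99.6, with 41.0 and 67.5, summit 592 bp downstream). All 3 signals lay below 151, the median of the conservative regions of the domains. With 3 genes, the share rests on too few for a comparison.

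The 2 pathway genes in the domains were prg-2, the near relative of prg-1 that the annotation calls a pseudogene, and slfl-4, whose product belongs to the same processing endonuclease. The ranked summit nearest to the start of prg-2 lay 1236 bp downstream of it, with a signal of 97.2 that did not reach the conservative list. The nearest to slfl-4 lay 9529 bp upstream. The start of prg-1 itself had a ranked summit at 509 bp with a signal of 29.2, and that of prde-1 at 160 bp with 45.8, neither of which reached the conservative list. The nearest ranked summits to snpc-4, tofu-4 and tofu-5 lay 2919, 1325 and 10119 bp away. Within 1000 bp of the start, 11 of the 22 protein-coding genes had a ranked summit, 50%, against 34.4% of all protein-coding genes. With 22 genes, this share too rests on too few for a comparison.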

How the data were processed

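Peak lists of RBM-26 ChIP-seq from 2 biological replicates of 1 group were analysed. Per the labels, they are on assembly ce11, and chromatin was sheared to 200 to 800 bp. Which aligner and peak caller were used, and how many reads each library had, is not given in the sources used here; depth is unknown. The signal of each peak and its −log10 irreproducible discovery rate (IDR) are the authors' deposited values, whose normalization is not stated. Peaks of a list that overlapped by 1 bp were merged, keeping the summit and signal of the strongest. The ranked list used is the one that holds all 3045 peaks of the conservative list. Replicate values are the highest signal of an overlapping region in that replicate's own ranked list.

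Genes came from Ensembl release 115 (WBcel235), with missing symbols from RefSeq. The highest interval end on chromosome IV did not exceed the chromosome's length. Each summit was compared with all bases of its area. Shares have Wilson intervals, medians order-statistic intervals and ratios Poisson intervals, all at 95%. With 1 group there was no condition to test, and no p-value was computed. The text names the 12 strongest conservative regions of each domain, the conservative regions within 250 bp of a piRNA gene (10 were asked for and 9 exist), bound members of gene families and a piRNA pathway list. The domains, lists and rules were chosen with earlier results of these data known. Merging and overlap were tested on simulated data. Python 3.11.15, numpy 2.4.6, scipy 1.17.1 and matplotlib 3.10.9 were used. Alternatives were each replicate alone, moved borders, unmerged peaks, other distances, other lists, a stricter IDR, and leaving out peaks of the commonest width or near small non-coding genes.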

Additional observations from a re-analysis of the deposited data

How the results depend on the processing

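Of 83 values under alternatives, 3 were set aside as unable to move by construction. The other 80 include the shares reaching under the 0.5 overlap rule, which could not move either. Of these 80, 50 stayed within counting error and 30 moved. A reversal was looked for only in the density ratios, ranked and conservative, of which 0 reversed. No paired analysis was possible because there is 1 group. With each replicate alone, the density ratio of domains to rest ran from 0.517 to 0.592 for ranked and from 0.625 to 0.727 for conservative regions. The share reaching the threshold ran from 12 to 12.7% in the domains and from 9.94 to 10.5% on the rest, and the median signal from 25.7 to 28.4 and from 23.4 to 24.7. The share of ranked domain summits near a start ran from 22.9 to 25.2%. Near a piRNA gene it ran from 9.01 to 18.5% (5.95 to 10.6% of thresholded summits). The share with a protein-coding start within 1000 bp ran from 37.6 to 38.6%, and was 38.5% in the main list. That share is of ranked summits and is not the share of genes called bound above. Without peaks of the commonest width, the density ratios were 0.851 and 0.874, the shares reaching 83.5% and 80.8%, and the medians 178 and 177. The shares of ranked domain summits near a start, near a piRNA gene and within 1000 bp of a start were then 47.1%, 3.53% and 58.8%. The ranked values rest on 85 domain regions, and the conservative ratio of 0.874 on 71. Borders moved inward by 250 kb gave a ranked ratio of 0.458. A −log10 IDR of at least 3 gave shares reaching of 9.83% and 7.11%. Unmerged peaks gave medians of 28.3 and 26.2 and a start share of 21.5%. With 500 bp in place of 250 bp for piRNA genes, 17.8% of ranked and 17.9% of conservative domain summits counted as near, against 62.1% of bases. With 250 bp in place of 500 bp for starts, and 500 bp in place of 1000 bp, the shares of ranked domain summits were 15.3% and 24.8%. Asking for 0.5 of the shorter region to be shared left the shares reaching at 18.3% and 14.3%. This was fixed in advance, since every conservative peak is also a peak of the ranked list.

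The read depth is unknown and the control was not analysed here, so a density is of peaks called and not of binding measured against input. The number of replicates, 2, gives only a range between them. Small counts limit the conservative comparisons, such as 9 summits near a piRNA gene.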
